A study of Caenorhabditis elegans with 12 samples.

Results

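The math and bath genes of Caenorhabditis elegans were taken as every gene row whose WBcel235 symbol is math- or bath- followed by a number. This gave 73 genes, 37 math and 36 bath, of 46904 gene rows. Membership therefore rests on the gene's name, and the encoded domains were not checked here. Every one of the 73 is annotated as protein-coding.

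RNA was measured by paired-end mRNA sequencing of whole worms on day 1 of adulthood, in 4 genotypes with 3 biological repeats each. The genotypes were the wild-type strain N2, daf-2(e1370) (strain CF1041), pfd-6(gk493446) (strain IJ462) and the double mutant pfd-6(gk493446); daf-2(e1370) (strain IJ485). daf-2 encodes the insulin/IGF-1 receptor, which e1370 weakens without removing it, and pfd-6 encodes a subunit of the prefoldin chaperone. All worms were raised on control RNAi bacteria to the L4 stage and then kept with FUdR, which blocks the production of progeny, on control or pfd-6 RNAi bacteria, and the labels do not say which plates a given library came from. Both mutations are present in every cell, and each single mutant was represented by 1 strain.

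MATH stands for the meprin and TRAF homology domain, a fold that binds other proteins. The bath genes are named for a BTB domain joined to a MATH domain. In such proteins the MATH part holds a substrate while the BTB part docks onto the cullin CUL-3, so that the substrate is marked with ubiquitin. The best known worm example is MEL-26, which brings the katanin subunit MEI-1 to CUL-3 after meiosis. The family has multiplied in Caenorhabditis, and most of its members have no assigned substrate. MATH-33 stands apart as a ubiquitin-specific protease of the USP7 type that removes ubiquitin, and it has been reported to act on the FOXO factor DAF-16.

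The libraries held 19394046 to 41009125 estimated counts. Transcripts of pfd-6 averaged 111 ± 28.9 CPM (counts scaled to each library's total after TMM adjustment, a correction for libraries dominated by a few genes; SD, n = 3) in N2 and 101 ± 50.1 in daf-2, then 13.9 ± 6.53 in pfd-6 worms and 15.9 ± 1.32 in double mutants. A pair of libraries stood apart from the rest. Ribosomal protein genes took 9.33 to 15.9% of counts in the other 10 libraries. Their share was 1.41% in the third daf-2 library (daf-2 replicate 3), with a 95% Wilson interval of 1.401 to 1.41%, and 0.609% in the third pfd-6 library (pfd-6 replicate 3), with an interval of 0.6056 to 0.612%. These intervals cover counting error only. The same 2 libraries held the highest summed level of the 73 genes, 1748 and 1740 CPM, against 1211 to 1612 CPM in the other 10. Hypodermis markers summed to 335 and 271 CPM there and to at least 2741 CPM in the other 10. They are called the ribosome-poor libraries here, and values without them are given where they matter.

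The family was concentrated on 1 chromosome arm. Of the 73 genes, 61 lie on chromosome II, 5 on I, 3 on III, 1 on IV and 3 on V (WBcel235). On chromosome II, 58 of them, 35 math and 23 bath, fall between positions 1028972 and 3733181, a span of 2.7 Mb that holds 703 protein-coding genes. In 28 of the 57 neighbouring pairs within that span the genes are less than 2 kb apart, and 23 of these 28 pairs are on the same strand. Near-identical copies can share reads, and the sources used here do not say how shared reads were divided, so the levels of close neighbours are uncertain to that extent. Reads can also be shared where annotations overlap. By whole gene span, introns included, this holds for 18 of the 73 genes, 6 of which overlap another member. Among these 6 the longest overlap is that of math-26 and math-3, 2858 bp on the same strand. Their exons total 2569 and 2389 bp, and these 2 genes may not be separate measurements.

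Most of these genes were weakly expressed in day 1 adults. The median level over all 12 libraries was 2.82 CPM per kb of exon, with 0.439 for the math genes and 5.03 for the bath genes. No gene was at 0 in all libraries, but 10 genes, all of them math, averaged below 0.1 CPM per kb. Only 57 of the 73 had at least 1 count in every library. The 58 genes of the chromosome II stretch had a median of 2.31 CPM per kb and the 15 others 9.27. The bath genes made up 67% of the family's counts and the math genes 33%.

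The 10 highest levels belonged to 9 bath genes and math-33. bath-42 was first with 157 CPM per kb, followed by bath-41 with 95.2, bath-40 with 88.5, math-33 with 82.5, bath-30 with 61.2 and bath-44 with 61.0. The next were bath-15 with 27.9, bath-5 with 23.0, bath-29 with 22.3 and bath-2 with 16.6 CPM per kb. MEL-26 is encoded outside the named family, and its transcript, at 185 CPM per kb, was above all of them.

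**Figure D1:**
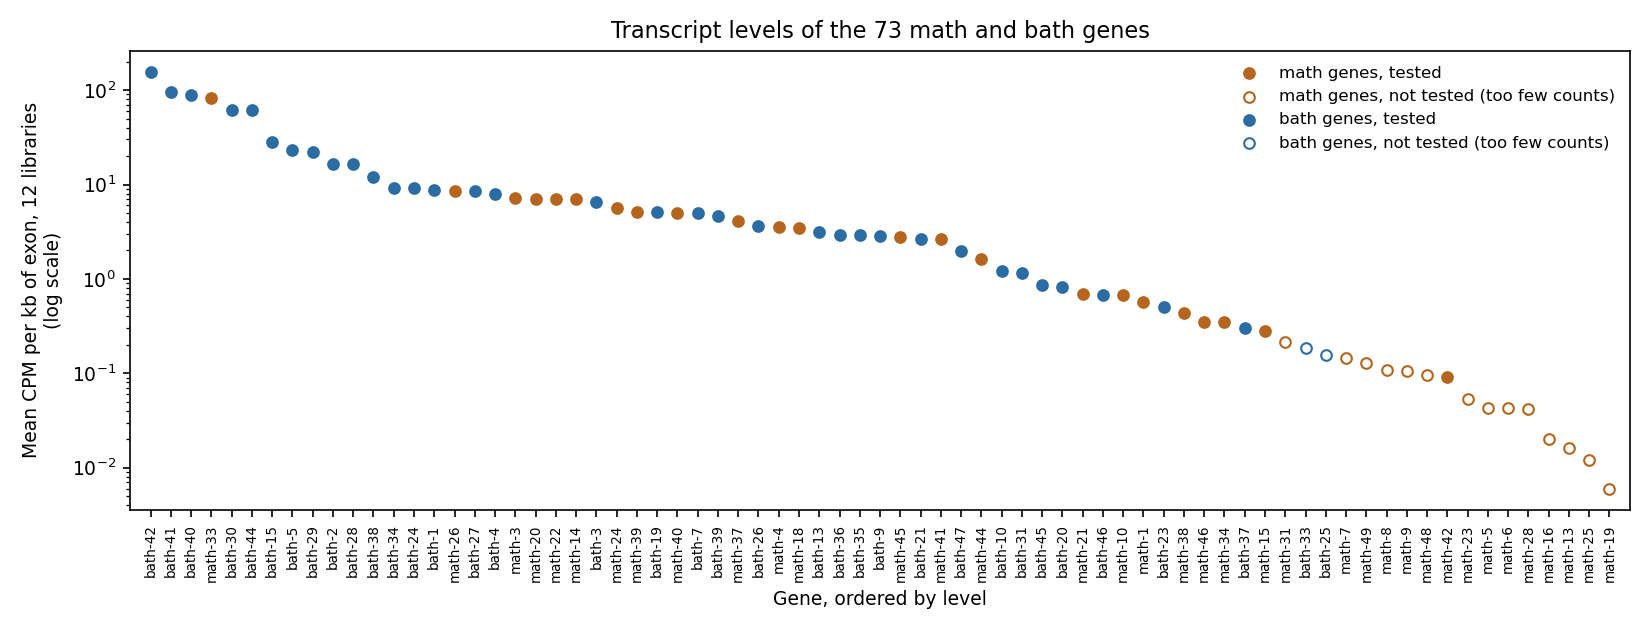
Mean level of each of the 73 genes over the 12 libraries, in CPM per kb of exon on a log axis, with math and bath genes in separate colours. The bath genes fill most of the upper end, with bath-42 at 157, while the 10 genes below 0.1 are all math genes.

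None of the 10 most abundant members passed the test described below in any comparison. Of all genes tested, 0.0994 to 3.29% were called, so 10 genes are too few to set these members apart. bath-42 was at 243, 243 and 252 CPM in N2 and 221, 242 and 302 in daf-2, then 206, 320 and 358 in pfd-6 worms and 269, 252 and 291 in double mutants, so that all groups overlapped. math-33 was at 350, 454 and 440 CPM in N2 and 209, 353 and 481 in daf-2, then 174, 401 and 421 in pfd-6 worms and 301, 283 and 317 in double mutants. The single mutants' means of math-33 lay below that of N2, but the SD of 137 in each was wider than the differences. The fold changes against N2 on the log2 scale were -0.25 for daf-2 and -0.32 for pfd-6 (adjusted p = 0.855 and 0.774). The double mutant averaged 300 ± 16.9 CPM, with every library below every N2 library. The double mutant was not tested against N2, and the share of all genes separated in this way was not counted. A stretch of 59 bp of math-33 overlaps scb-1 on the opposite strand, and whether counting used strand is not stated. bath-40 was at 149, 194 and 174 CPM in N2, against 69.1, 201 and 59.9 in pfd-6 worms, which overlapped through 1 library. The log2 fold change of -0.65 (SE 0.43, adjusted p = 0.621) was -1.42 without pfd-6 replicate 2 (0.0956), -0.41 without pfd-6 replicate 1 (0.713) and -0.36 without pfd-6 replicate 3 (0.891). Its daf-2 libraries, at 84, 163 and 102 CPM, and its double-mutant libraries, at 125, 123 and 133, lay within the range of the pfd-6 libraries. The double-mutant libraries were also all below those of N2, a pair that was not tested. bath-41 was at 104, 93.9 and 96.0 CPM in the double mutant, below every daf-2 library (158, 134 and 179) and every pfd-6 library (186, 156 and 110). Its log2 fold changes of -0.68 (SE 0.26) against daf-2 and -0.62 (SE 0.26) against pfd-6 did not pass (adjusted p = 0.223 and 0.2).

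Differences between genotypes were tested with edgeR's quasi-likelihood test over the 15090 genes that passed a filter on low counts, with Benjamini-Hochberg adjustment and a threshold of 0.05. Of the family, 57 genes passed the filter, 23 math and 34 bath. The other 16, 14 math genes with bath-25 and bath-33, had 1 to 66 counts over all libraries, and none exceeded 0.646 CPM in any library (bath-25). In whole worms, fewer cells that express a gene and less of its RNA per cell cannot be told apart.

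**Figure D2:**
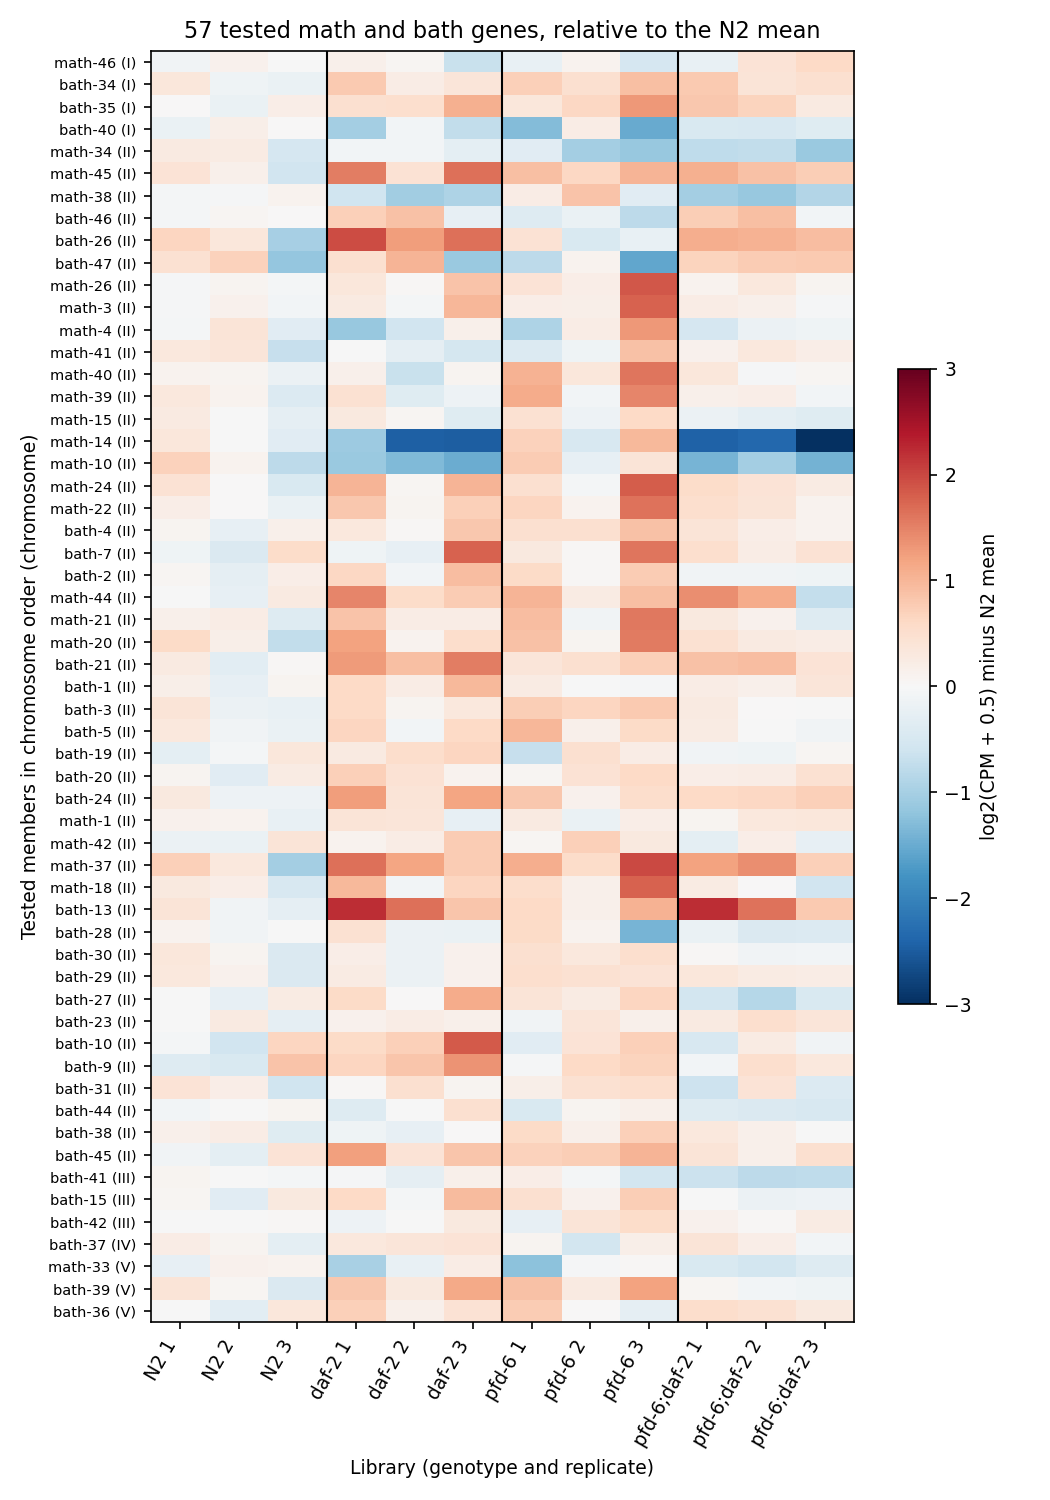
Level of each tested gene in each of the 12 libraries, as log2(CPM + 0.5) relative to the N2 mean, with genes in genome order and libraries grouped by genotype. The libraries of each group differ among themselves, and pfd-6 replicate 3 holds the highest value for 23 of the 57 genes, against 17.2% of all genes tested.

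The question of the daf-2 and N2 comparison is how reduced insulin signalling changes transcripts. No member passed the adjusted threshold (0 of 57, where 0.934% of all genes tested were called). At an unadjusted p under 0.05 there were 12 members, against 10.1% of all genes, and DESeq2 called 5: bath-13, bath-21, bath-26, math-10 and math-14, where it called 2.66% of all genes. With the replicate number as a block, edgeR called 1 member, math-10 (adjusted p = 0.0455), where 1.68% of all genes were called. The bath genes lay mostly above N2, with 31 of 34 positive log2 fold changes and a median of 0.53. The math genes were split, 12 above and 11 below, with a median of 0.42. Over all genes tested 52.1% were positive, with a median of 0.03. Without the 2 ribosome-poor libraries, 27 of 34 bath genes were positive, with a median of 0.40, and 14 of 22 math genes, with a median of 0.23. With replicates 1 and 2 alone the medians were 0.42 for the bath genes and 0.13 for the math genes. Without the filter, 52 of all 73 members were positive, with a median of 0.47.

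Within that pattern, 11 members had every daf-2 library above every N2 library (10.6% of all genes did) and 3 had every daf-2 library below (7.65% of all genes). bath-13 was at 1.69, 1.05 and 0.897 CPM in N2 and 7.30, 4.78 and 2.49 in daf-2, then 2.04, 1.36 and 2.96 in pfd-6 worms and 7.30, 4.67 and 2.41 in double mutants. The daf-2 libraries were all above N2, and those of the double mutant overlapped those of pfd-6 through their lowest library. Its log2 fold change of 1.98 (SE 0.53) in daf-2 against N2 had an adjusted p of 0.13. bath-21 was at 1.88, 1.08 and 1.52 CPM in N2 and 4.23, 3.16 and 5.17 in daf-2, with no overlap and a log2 fold change of 1.49 (SE 0.37, adjusted p = 0.0927). The span of bath-21, introns included, overlaps other annotated genes, among them a pseudogene on the opposite strand over 2943 bp. Its exons total 1019 bp, so this overlap does not show how many reads are shared.

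Setting pfd-6 worms against N2 asks what loss of prefoldin 6 changes when daf-2 is intact. No member passed (0 of 57, where 0.0994% of all genes were called), 14 had an unadjusted p under 0.05, against 6.93% of all genes, and DESeq2 called 0, where it called 0.206% of all genes. All 14 had the same adjusted p of 0.614. The direction was mostly upward here too, with 46 of 57 members above N2. The median log2 fold change was 0.49, against 0.04 over all genes. The same N2 libraries entered the daf-2 comparison, so the upward shifts are not independent of each other. N2 replicates 2 and 3 were the lowest library for 13 and 19 of the 57 members (4.44% and 17.1% of all genes). Their part in the shifts was not tested. The math genes had a median of 0.91 with 20 of 23 positive, and the bath genes 0.42 with 26 of 34 positive.

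pfd-6 replicate 3 was the highest library for 14 of the 23 tested math genes and for 9 of the 34 bath genes, against 17.2% of all genes tested. math-40 was at 4.04, 3.90 and 3.18 CPM in N2 and at 8.20, 4.84 and 12.3 in pfd-6, a log2 fold change of 1.18 (SE 0.39). math-21 was at 0.729, 0.786 and 0.345 CPM in N2 and at 1.59, 0.529 and 2.80 in pfd-6, and math-37 at 5.26, 3.86 and 1.24 in N2 and at 6.98, 4.65 and 13.4 in pfd-6. In all 3 genes the third pfd-6 library was the highest of its group, and only math-40 had no overlap with N2. With the 2 ribosome-poor libraries left out, the math genes' median was 0.39 with 17 of 22 positive, while that of the bath genes was 0.38 with 28 of 34 positive. With replicates 1 and 2 alone it was 0.15 for the math genes, with 15 of 22 positive, 0.40 for the bath genes and 0.28 for both together. The low ribosomal share of pfd-6 replicate 3 moves with this difference, and its part in it was not tested. Counted by library, 12 members were above every N2 value in all pfd-6 libraries (4.71% of all genes) and 1, bath-46, was below (2.74% of all genes).

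**Figure D3:**
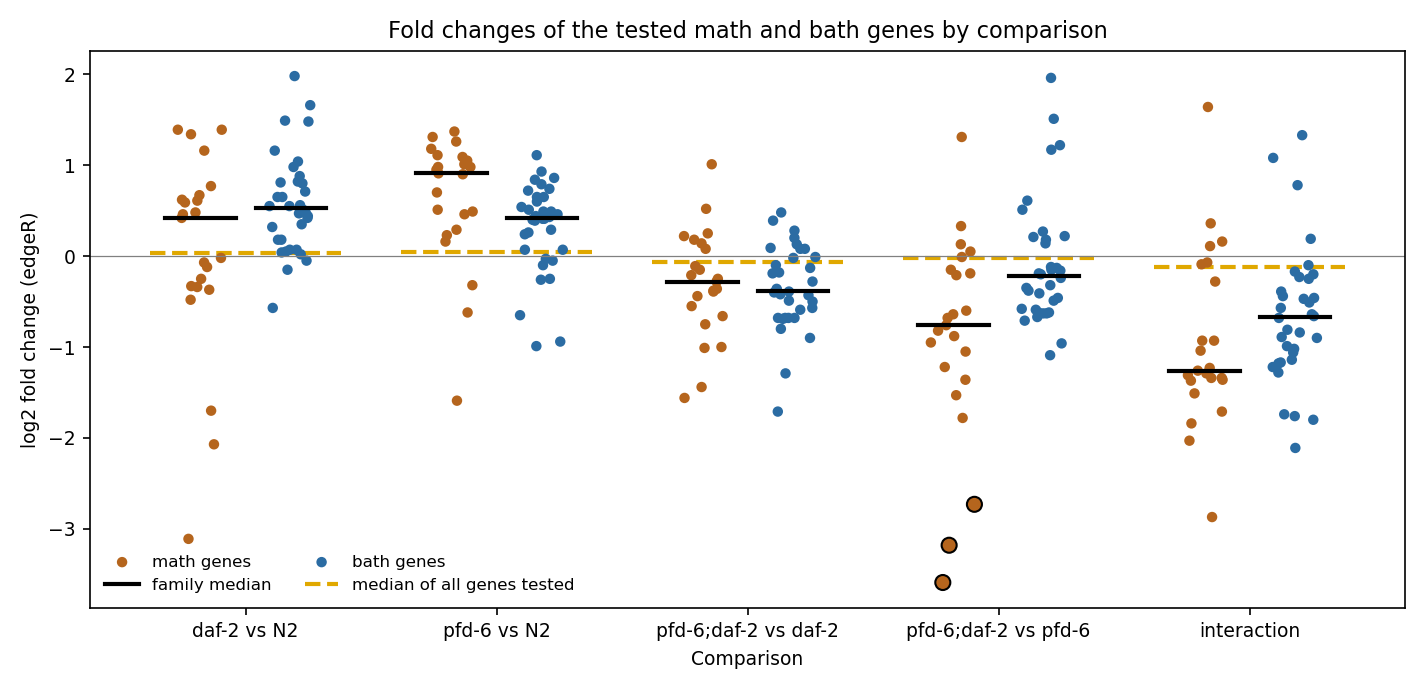
Log2 fold changes of the tested math and bath genes in each comparison, 1 point per gene, with the median of each family and of all genes tested. Outlined points passed the test. Medians lie above 0 for both single mutants against N2 and below 0 for the double mutant against either single mutant.

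The double mutant was then set against each single mutant. These 2 comparisons share the double mutant's libraries, and each shares a single mutant's libraries with a comparison above. Against daf-2, no member passed (0 of 57, where 3.11% of all genes were called). There were 7 members at an unadjusted p under 0.05, against 15% of all genes, and both DESeq2 and the fit with the replicate number as a block called 1, bath-27, with 6.08% and 5.39% of all genes called. Of the 57 members 42 were lower in the double mutant, with a median log2 fold change of -0.36 (all genes -0.07). With the 2 ribosome-poor libraries left out the median was -0.23, and with replicates 1 and 2 alone it was -0.08. In this comparison 10 members were lower in every double-mutant library (14.2% of all genes) and 2 were higher (14.4%).

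bath-27 came closest to the threshold there. It was at 12.4, 10.5 and 14.9 CPM in N2 and 18.8, 12.5 and 27.7 in daf-2, then 16.5, 15 and 19.8 in pfd-6 worms and 8.36, 6.70 and 9.03 in double mutants. The double mutant's libraries were below all 9 others. The log2 fold change was -1.29 (SE 0.32, adjusted p = 0.0515) against daf-2 and -1.09 (SE 0.32, adjusted p = 0.0861) against pfd-6. The first passed without N2 replicate 3 (adjusted p = 0.0442) or pfd-6 replicate 3 (0.0459), and without daf-2 replicate 3 it was -0.91 (0.246). bath-27 overlaps lido-14 over 1117 bp on the same strand, so reads of the 2 genes may not be separable. bath-10 had the most negative fold change against daf-2, -1.71 (SE 0.63, adjusted p = 0.211), from 1.49, 1.71 and 4.29 CPM in daf-2 to 0.458, 1.08 and 0.737 in the double mutant.

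Members passed the test when the double mutant was compared with pfd-6 worms, which asks what daf-2 adds when pfd-6 is mutated. There, math-14, math-10 and math-38 fell and no member rose. These 3 of 57 stand against 1% of all genes called lower and 3.29% called in either direction. Of the 57, 42 were lower in the double mutant, with a median log2 fold change of -0.38 (all genes -0.02), but without the 2 ribosome-poor libraries the counts were 34 of 56 with a median of -0.08. Every double-mutant library was below every pfd-6 library for 15 members (13.9% of all genes) and above for 3 (14.7%). At an unadjusted p under 0.05 there were 16 members, against 20.4% of all genes, and DESeq2 called 5, adding bath-27 and bath-46, where it called 8.56% of all genes. What follows describes the 3 that fell.

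math-14 was the strongest. It was at 13.5, 10.5 and 8.22 CPM in N2 and at 17.2, 7.45 and 21.1 in pfd-6, but at 4.67, 1.52 and 1.48 in daf-2 and at 1.55, 1.67 and 0.540 in the double mutant. The 6 libraries with the daf-2 mutation were all below the 6 without it. The log2 fold change of the double mutant against pfd-6 was -3.59 (SE 0.61, adjusted p = 0.0118), a 12-fold lower level. In daf-2 against N2 it was -2.07 (SE 0.57, adjusted p = 0.138). The call in the double mutant was lost in 1 of 19 alternative settings, replicates 1 and 2 alone (-2.90, adjusted p = 0.0522).

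math-10 is the next gene downstream on the same strand. It was at 2.06, 1.21 and 0.414 CPM in N2 and at 2.20, 0.832 and 1.59 in pfd-6, but at 0.237, 0.129 and 0.0631 in daf-2 and at 0.106, 0.279 and 0.0982 in the double mutant. Again no library with the daf-2 mutation reached the lowest one without it. These levels rest on few counts, 7, 4 and 2 in daf-2 and 3, 9 and 2 in the double mutant. The libraries without the daf-2 mutation held 6 to 79 counts, with the 6 in N2 replicate 3. The log2 fold changes were -3.18 (SE 0.71, adjusted p = 0.034) in the double mutant against pfd-6 and -3.11 (SE 0.71, adjusted p = 0.0675) in daf-2 against N2. It passed in 11 of 19 alternative settings, and was lost without any 1 of the double mutant's libraries (adjusted p up to 0.145), or when pfd-6 replicate 1, pfd-6 replicate 3 or daf-2 replicate 2 was left out. It was also lost without the 2 ribosome-poor libraries (-3.18, adjusted p = 0.0502) and with replicates 1 and 2 alone (-2.90, adjusted p = 0.0795).

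math-38 was at 0.807, 0.819 and 0.967 CPM in N2 and at 1.10, 1.97 and 0.576 in pfd-6, but at 0.406, 0.161 and 0.221 in daf-2 and at 0.176, 0.124 and 0.246 in the double mutant. The libraries split by the daf-2 mutation without overlap. Here too counts were few, 12, 5 and 7 in daf-2 and 5, 4 and 5 in the double mutant, against 14 to 52 without the mutation. The log2 fold change was -2.73 (SE 0.57, adjusted p = 0.0273) in the double mutant against pfd-6 and -1.70 (adjusted p = 0.235) in daf-2 against N2. It passed in 14 of 19 alternative settings and was lost with the compared groups alone (adjusted p = 0.0739), without pfd-6 replicate 1 (0.0588) or without any 1 double-mutant library (up to 0.113).

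**Figure D4:**
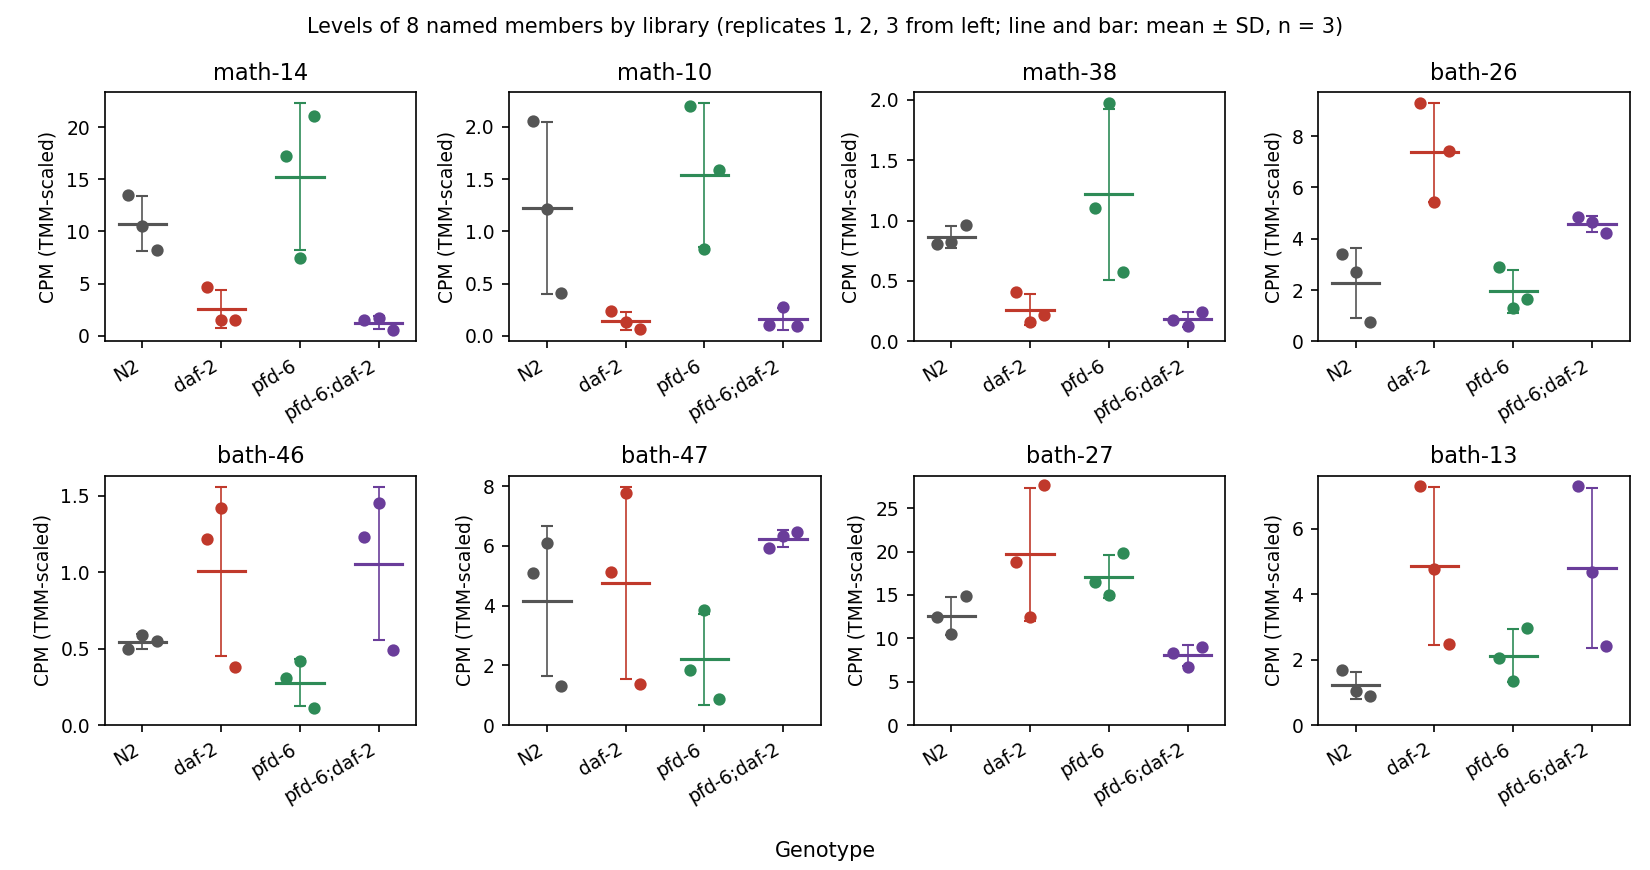
CPM of 8 named members in each library, 1 panel per gene, with a point per library and a line and bar for each genotype's mean and SD. For math-14, math-10 and math-38 the 6 libraries with the daf-2 mutation lie below the 6 without it, and for bath-26 they lie above.

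The 3 genes lie in the chromosome II stretch, math-14 at positions 1869420 to 1870805 and math-10 at 1871542 to 1873348, both on the plus strand, and math-38 at 1577378 to 1579986 on the minus strand. Within 20 kb of math-14, the tested genes were math-10, math-15 (log2 fold change -1.78 in the double mutant against pfd-6, adjusted p = 0.17), C16C4.18 (-0.89, adjusted p = 0.416) and the F-box genes fbxb-95, fbxb-96 and fbxb-98, none of which passed apart from math-10. The math genes math-13, math-16 and math-5 to math-9 in the same window were too low to test. Around math-38, fbxb-46, fbxb-49 and fbxb-50 had fold changes of -0.35, -0.64 and -0.87 on the log2 scale, while bath-46 and bath-26 had 1.96 and 1.22, with none called.

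The separation of all 6 libraries with the daf-2 mutation from all 6 without it was looked up after these values were seen. It held downward for math-14, math-10 and math-38, and for 0.782% of all genes tested. Upward it held for 1 member, bath-26, and for 1.66% of all genes. bath-26 was at 3.41, 2.69 and 0.759 CPM in N2 and 2.90, 1.32 and 1.65 in pfd-6, against 9.27, 5.43 and 7.41 in daf-2 and 4.83, 4.64 and 4.22 in the double mutant. Its log2 fold changes were 1.66 (SE 0.49, adjusted p = 0.187) in daf-2 against N2 and 1.22 (SE 0.49, adjusted p = 0.189) in the double mutant against pfd-6, and neither passed. The pfd-6 mutation separated the libraries in this way for 0 members, and for 0.252% of all genes upward and 0.0663% downward.

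bath-26 has neighbours with a partly similar pattern. bath-46, bath-26 and bath-47 lie next to each other between positions 1597906 and 1604621, where bath-46 and bath-26 overlap by 28 bp on opposite strands. bath-46 was at 0.305, 0.416 and 0.110 CPM in pfd-6 and 1.23, 1.45 and 0.491 in the double mutant, without overlap (log2 fold change 1.96, SE 0.63, adjusted p = 0.11). bath-47 was at 1.86, 3.86 and 0.878 CPM in pfd-6 and 5.92, 6.32 and 6.48 in the double mutant (1.51, SE 0.69, adjusted p = 0.244). Neither separated daf-2 from N2. In daf-2 replicate 3, bath-46 was at 0.379 and bath-47 at 1.36 CPM, below their other daf-2 libraries at 1.22 and 1.42 and at 5.14 and 7.78.

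The interaction term asks whether the daf-2 mutation had a different effect with pfd-6 mutated than with pfd-6 intact. No member passed (0 of 57, where 0.139% of all genes were called). There were 15 members at an unadjusted p under 0.05, against 17.4% of all genes, and DESeq2 called 1, bath-27, where it called 2.96% of all genes. The fit with the replicate number as a block called 0, where 0.239% of all genes were called. For math-10 the term was -0.07 on the log2 scale (adjusted p = 0.977) and for math-14 it was -1.51 (adjusted p = 0.329). bath-27 had -1.74 (SE 0.45, adjusted p = 0.149). As a description, 49 of 57 members were negative, with a median of -0.90 (all genes -0.12). This median was -0.59 without the 2 ribosome-poor libraries and -0.36 with replicates 1 and 2 alone. The term uses all 12 libraries, and so shares samples with every comparison above.

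**Figure D5:**
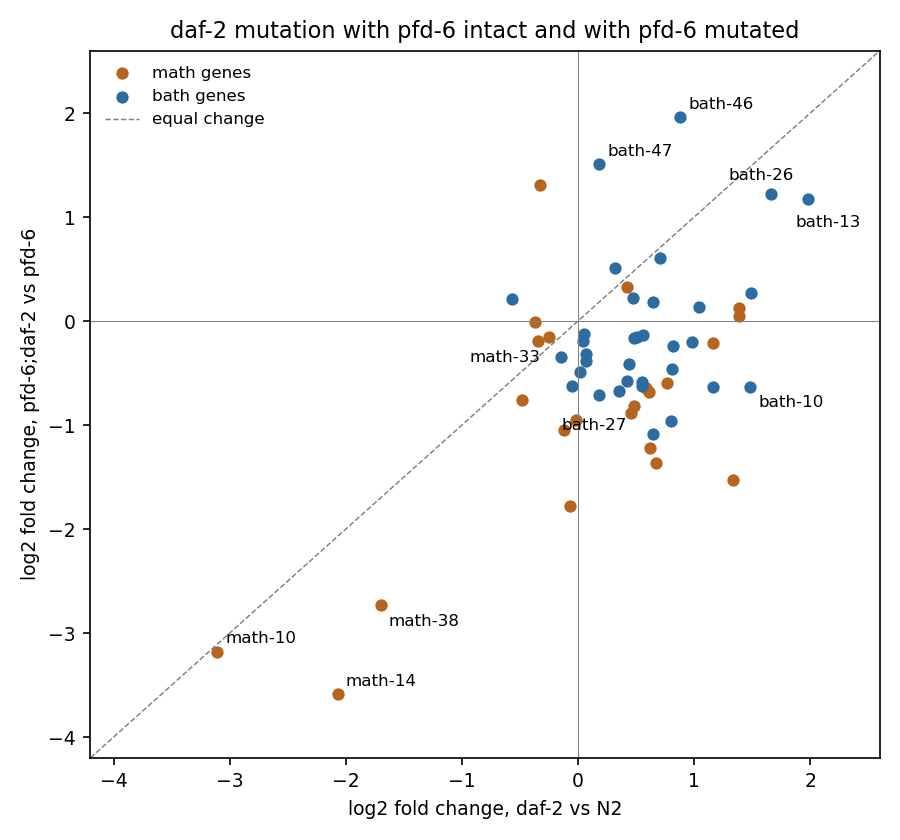
Log2 fold change of each tested member in the double mutant against pfd-6 (vertical) plotted against that in daf-2 against N2 (horizontal), with a dashed line of equal change. math-10, math-14 and math-38 lie far down on both axes, while most bath genes lie to the right of 0 and below the line.

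The partners of BTB-MATH proteins showed no call. A list of 17 genes was tested whole, made of the CUL-3 ligase, its regulators, mel-26, mei-1 and mei-2. In the 5 tests 0 passed, where edgeR called 0.0994 to 3.29% of all genes and DESeq2 0.206 to 8.56%. At an unadjusted p under 0.05 in edgeR there were 0 to 4, against 6.93 to 20.4% of all genes. Medians lay between -0.32 and -0.02 on the log2 scale. mel-26, the characterised adaptor, averaged 287 ± 66.4 CPM in N2 and 357 ± 160 in daf-2, then 430 ± 173 in pfd-6 worms and 198 ± 20.3 in double mutants. Its libraries ran from 175 to 213 CPM in the double mutant, below 310 to 628 in pfd-6 and 258 to 543 in daf-2. Such a separation downward held for 13.9% of all genes against pfd-6 and 14.2% against daf-2. The log2 fold changes were -1.12 (SE 0.40, adjusted p = 0.144) against pfd-6 and -0.85 (SE 0.40, adjusted p = 0.339) against daf-2. Of the related btb and kel genes, 18 of 22 were tested. btb-16 was called higher in daf-2 against N2, where 0.716% of all genes were. kel-10 was called higher in the double mutant against daf-2 (2.73% of all genes) and against pfd-6 (2.29%). Both were named after their values were seen. In pfd-6 against N2, 0 were called by edgeR (0.0994% of all genes) or DESeq2 (0.206%). There 2 had an unadjusted p under 0.05, against 6.93% of all genes. The other MATH-domain genes trf-1 and trf-2, which encode TRAF-type proteins, had 22 and 44 counts in all and were not tested.

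Other cell types' markers also moved between these genotypes. The summed level of 25 sperm markers was 14 to 81.5 CPM in N2, 6.35 to 20.7 in daf-2, 10 to 62.7 in pfd-6 and 195 to 508 in the double mutant, with ssp-9 at 0 in daf-2. All 23 tested sperm markers were higher in the double mutant than in pfd-6, and 6 were called higher, against 2.29% of all genes. Against daf-2, all 23 were also higher and 19 were called, against 2.73% of all genes. Hypodermis markers summed to 5751 to 6599 CPM in the double mutant and 271 to 3484 in pfd-6. Whether any of these shifts bears on a math or bath gene was not tested.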

How the data were processed

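Whole-worm mRNA was sequenced in 12 libraries, 3 per genotype. The authors deposited expected counts, estimated for each gene from their reads and not normalised. RSEM 1.3.1, HISAT2 2.0.5 and StringTie 1.3.3 appear in the submitters' processing notes beside R 3.1.3 and limma 3.24.15, as do the builds WBcel235 and ce11, and no step is given for any of them. How reads shared by similar genes were divided, and whether strand was used, is not given in the sources used here. Per the labels' protocols the repeats are biological and the last set was added later.

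Symbols, positions and exon lengths came from the Ensembl release 115 annotation of WBcel235, which holds 46817 of the 46904 rows. Between 1.68 and 2.99% of values in a library were not whole, and counts were rounded before testing. edgeR 4.0.16 (filterByExpr, TMM factors, quasi-likelihood test, genotype as the only term, all 12 libraries) was run in R 4.3.3 on 15090 genes, with p-values adjusted by Benjamini-Hochberg in each of 5 tests. Library totals ran from 19394046 to 41009125. CPM values use library totals multiplied by TMM factors, which ran from 0.747 to 1.6, the highest in pfd-6 replicate 3, while shares of counts use the unscaled totals. Tested on simulated counts for daf-2 against N2 (14822 genes), the fit recovered 1.49% of 2-fold, 38.8% of 4-fold and 77.3% of 8-fold changes. There were 3 false calls. The changed genes were drawn from those averaging above 1 CPM. The rates therefore do not cover members below that, such as math-10 and math-38, which averaged 0.768 and 0.63 CPM.

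Named genes were every member past the threshold, the 10 highest per kb, the 3 highest and 3 lowest fold changes per comparison among members whose higher group averaged 1 CPM or more, and math-33, bath-42 and mel-26. bath-43, also on that list, has no row under this symbol and was not analysed here. Members and lists were chosen with earlier results of these data known. Alternatives were DESeq2 1.42.0, RLE size factors, no filter, the compared groups alone, a replicate block, reduced sets of libraries and each library left out. Deviations of same-numbered libraries from their group means correlated at 0.453, 0.271 and 0.31 for daf-2 and N2. For the double mutant and daf-2 they correlated at 0.315, 0.211 and 0.137. For these 2 comparisons the replicate block therefore rests on these correlations, and not on the labels. The block was fitted once over all 12 libraries, however, and so also on the pfd-6 libraries. Replicates 2 and 3 of pfd-6 and N2 hardly deviated together (correlations 0.0344 and 0.000163). The main fit held no block, so its counts of calls in these 2 comparisons ignore this pairing. With the block, edgeR called math-10 in the first and bath-27 in the second. No 2 libraries of the same genotype agreed within sampling noise.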

Additional observations from a re-analysis of the deposited data

How the results depend on the processing

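The number of members called depended on the test. DESeq2 called 5 members in daf-2 against N2, 1 in the double mutant against daf-2, 5 in the double mutant against pfd-6 and 1 in the interaction, where edgeR called 0, 0, 3 and 0. In the same order, DESeq2 called 2.66, 6.08, 8.56 and 2.96% of all genes, and edgeR 0.934, 3.11, 3.29 and 0.139%. A replicate block gave counts of 1, 1, 6 and 0, where it called 1.68, 5.39, 9.91 and 0.239% of all genes. For the double mutant against pfd-6, and for pfd-6 against N2, the same-numbered libraries did not all deviate together (lowest correlations 0.0195 and 0.000163), so there the block rests on a shared number only. It changed no other count of calls. Leaving out each library in turn gave 0 to 1 calls in daf-2 against N2 and 0 in pfd-6 against N2. In the double mutant it gave 0 to 1 against daf-2 and 1 to 3 against pfd-6, and in the interaction 0. The shares of all genes called in these reduced fits are not given here, so these counts show only how far the members' calls held. The single calls were math-10 without N2 replicate 3 and bath-27 without N2 replicate 3 or pfd-6 replicate 3, and the lowest count against pfd-6 was math-14 alone, without pfd-6 replicate 1 or any 1 double-mutant library. Over 30 fold changes of named members in 19 settings, 532 of 563 values kept their direction and side of the threshold, 15 newly passed, 14 no longer passed and 2 reversed. The reversed ones were bath-47 in the double mutant against daf-2, -0.02 when only replicates 1 and 2 were kept and -0.01 when both ribosome-poor libraries were left out, against 0.39 on the log2 scale. The cause was not tested. math-10 gave no value in daf-2 against N2 with the compared groups alone, because it failed the filter there. With 3 libraries a genotype and most members at a few CPM, 2-fold changes were mostly not detectable.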

Other observations

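The F-box genes, which also encode substrate adaptors of cullin ligases and have likewise multiplied in worms, were set beside the math and bath genes. Of 322 genes named fbxa, fbxb or fbxc, 241 were tested. In daf-2 against N2, 219 were positive (52.1% of all genes) with a median log2 fold change of 0.89, and 7 were called higher, against 0.716% of all genes. In pfd-6 against N2, 217 were positive (52.4% of all genes) with a median of 0.77. There 4 were called higher, against 0.0928% of all genes (fbxa-176, fbxa-188, fbxa-189 and fbxb-7, named after their values were seen). The same 4 genes were among the 7 called in daf-2 against N2. They were also the 4 called in the interaction, with negative terms, where 0.113% of all genes were called lower. The highest F-box log2 fold changes were 11.03 in daf-2 against N2 and 10.80 in pfd-6 against N2. The lowest interaction term was -10.60. Whether these calls reflect the shared N2 libraries and not each mutation was not tested. Of the 15090 genes tested, 8216 were lower in the double mutant than in daf-2 and 7701 lower than in pfd-6. Of the F-box genes, 214 were lower than in daf-2, with a median of -0.57, and 181 lower than in pfd-6, with a median of -0.39. Those called lower were 1 against daf-2 (fbxa-181), where 0.384% of all genes were, and 4 against pfd-6 (fbxa-72, fbxa-83, fbxa-151 and fbxa-181), where 1% of all genes were, again named after their values were seen. The corresponding medians of the math and bath genes were 0.48, 0.49, -0.36 and -0.38. These comparisons share libraries, and no difference between the families was tested.

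The 57 tested math and bath genes also differed between libraries of 1 genotype. Relative to the N2 mean, their median log2(CPM + 0.5) was 0.47, 0.07 and 0.42 in the daf-2 libraries, 0.44, 0.15 and 0.68 in the pfd-6 libraries, 0.23, 0.20 and -0.01 in the double mutant and 0.13, 0.01 and -0.19 in N2. Over all genes tested the same medians lay between -0.04 and 0.05. N2 replicate 3 was the lowest library for 19 of the 57 members, against 17.1% of all genes, and N2 replicate 2 for 13, against 4.44% of all genes.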
